A study of Mus musculus with 10 samples.

Results

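RNA was read in 5 libraries of mouse prostate organoids that had received only the vehicle of a drug, 5 of the 10 libraries in the series. They were chosen by label, as the DMSO and EtOH controls, and no treated library was used. Organoids are small 3-dimensional cultures grown from epithelium. These came from the dorsal-lateral prostate lobe of C57BL/6 mice aged 8 weeks. In all 5 libraries the mice carried cMYC overexpression, floxed EZH2 alleles and an inducible PSA-CreERT2, a recombinase under the PSA promoter that acts only once Tamoxifen is given. The medium of each culture contained the synthetic androgen R1881 at 10 nM. DMSO, the vehicle for DZNep, gave 3 libraries in 1 table, and EtOH, the vehicle for Tamoxifen, gave 2 libraries in another, all taken at 3 days. The labels name neither the promoter of the MYC construct nor its species, and do not say that libraries of a group were separate cultures or animals. Any spread given here may therefore be technical.

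The prostate gland is a tube of tall luminal cells that secrete the seminal fluid proteins, set on a layer of basal cells that hold the gland to its basement membrane. Androgen keeps luminal cells alive and switches on the secretory genes. Near the urethra lies a proximal type of luminal cell, which is known for stem cell antigens and for growing well as organoids. MYC, an oncogene of prostate cancer, drives genes of ribosome production and growth.

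Levels are given in RPKM, reads per kilobase of transcript scaled to the mapped reads of a library, so they can be compared between genes. Where 5 values stand in a row, they are DMSO 1, 2 and 3 and then EtOH 1 and 2. A gene was counted as expressed when it reached 1 RPKM in every library of its table. This held for 10911 of 24043 genes with DMSO (45.4%) and 10929 of 24016 with EtOH (45.5%). These shares are the background for every count of expressed list members below. A percentile rank of 100 is the most abundant gene of a table. Absolute depth is not known from RPKM. Between 15021 and 15223 genes were above 0 in a library, and RPKM totals ran from 469455 to 512726. In every library 40 of 40 housekeeping genes, a list added after the data were seen, were far above 0. The lowest of them was TBP, the TATA-binding protein, at 13.6 to 15 RPKM. A gene listed at 0 may still be present below what these libraries could detect.

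The libraries of a vehicle were not closest to each other in every case. Across 8106 genes at 5 RPKM or more in all libraries, the SD of the log2 difference was 0.10 between EtOH 1 and DMSO 2 and 0.114 between EtOH 1 and DMSO 3. It was 0.144 between EtOH 1 and EtOH 2. DMSO 2 and DMSO 3 were the closest pair at 0.0865, and DMSO 1 and DMSO 3 differed by 0.156. EtOH 2 lay between 0.144 and 0.167 from every other library. Rank correlation over all genes was 0.978 to 0.980 for every pair (Spearman's rho across genes, which are not independent replicates).

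The organoids expressed luminal and basal genes side by side, in both tables and at like levels. Of the luminal list 18 of 21 matched members were at 1 RPKM or more in all 5 libraries, and of the basal list 23 of 25, against a background of 45.4% and 45.5% of all genes. The median percentile rank was 98.2 for luminal members in both tables, and 93.9 (DMSO) and 94.4 (EtOH) for basal members. KRT19, a keratin of simple and luminal epithelium, stood at 2840.1, 2807, 2688, 2904 and 2737 RPKM. KRT5, the keratin that defines basal cells, stood at 2079, 2074, 2030.3, 2046 and 2193 RPKM. The ranges of both vehicles overlapped for each of these keratins. KRT8, the standard luminal keratin, was far lower at 154, 162, 152, 169 and 156 RPKM, and its partner KRT18 was at 263, 263, 244, 272 and 240.1 RPKM. In each library KRT5 exceeded KRT8 by 12.1 to 14-fold. In bulk RNA, fewer cells of a type and less RNA per cell cannot be told apart.

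Of 52 keratin genes, 20 were expressed (38.5%), against 45.4% and 45.5% of all genes. Together the keratins held 2.31% to 2.41% of a library's RPKM total. KRT19 alone made up 22.9% to 24.7% of the keratin total, KRT15 17.9% to 20.3% and KRT5 17.4% to 18.4%. KRT15, a keratin of basal and progenitor cells, stood at 2293, 2179, 2063, 2107 and 2417 RPKM and exceeded KRT14, the usual basal partner of KRT5, by 2.42 to 2.98-fold. KRT7, found in ducts and urothelium, was at 1282 to 1407 RPKM. KRT4, a keratin of mucosal and proximal prostate epithelium, was at 1017 to 1166 RPKM, and KRT6A, of stressed and hyperproliferative epithelium, at 557 to 661 RPKM. The keratins of terminal skin differentiation were low, with KRT10 at 11.4 to 13.9 RPKM and KRT1 at 2.14 to 2.58 RPKM. KRT9, KRT24 and KRT71 were among 11 keratins listed at 0 in all 5 libraries.

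**Figure D1:**
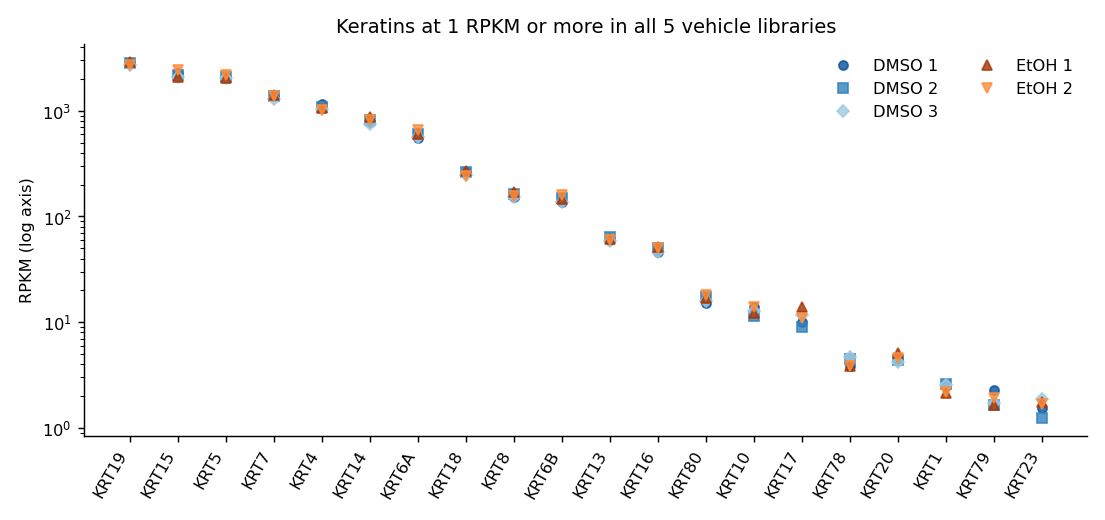
Level of each keratin that reached 1 RPKM in all 5 vehicle libraries, in RPKM on a log axis, with 1 symbol per library (3 DMSO, 2 EtOH). The order runs from KRT19, at 2688 to 2904 RPKM, to KRT23, at 1.24 to 1.89 RPKM, and the 5 symbols of a keratin lie close together.

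Among the basal genes, TRP63, the p63 transcription factor that basal cells require, stood at 43.5, 49.9, 51.2, 50.6 and 48.2 RPKM. COL17A1 and ITGB4, which anchor basal cells in hemidesmosomes, were at 118 to 141 RPKM and 89.9 to 109 RPKM. Among the laminin chains, which build the basement membrane below them, LAMB3 was at 91.1 to 102 RPKM and LAMA3 at 18 to 24.6 RPKM. For these anchoring genes DMSO 1 was the lowest library. NGFR, a neurotrophin receptor of basal cells, was at 6.61 to 7.62 RPKM. The 2 members below the threshold were MME, the peptidase CD10, and FLRT3, an adhesion protein, at most 0.177 RPKM and 0.442 RPKM.

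Among the luminal genes, the tight junction protein CLDN4 was at 489 to 569.8 RPKM, and CDH1, epithelial cadherin, at 194 to 220.02 RPKM. FOXA1, a pioneer factor that opens chromatin in luminal cells, stood at 107, 111, 111, 111 and 106 RPKM. The luminal surface enzymes DPP4 (CD26) and CD38 reached at most 0.031 RPKM and 0.203 RPKM. FOLH1, which encodes prostate-specific membrane antigen, was listed at 0 in all 5 libraries.

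Genes of the proximal luminal type were among the most abundant of all. Of 22 members, 19 were expressed, with a median percentile rank of 98.4 in both tables. CBR2, a carbonyl reductase, stood at 2161, 1843, 1960.3, 2104 and 2113 RPKM. WFDC2, a secreted protease inhibitor, stood at 1825, 1652, 1563, 1713 and 1741 RPKM, and both were highest in DMSO 1. LY6A, the stem cell antigen Sca-1, stood at 1199, 1162, 1115, 1275 and 1367 RPKM, with both EtOH libraries above the 3 DMSO libraries. PSCA, prostate stem cell antigen, was at 597 to 662 RPKM. The chaperone CLU was at 357 to 442 RPKM and the iron-binding protein LTF at 91.7 to 101 RPKM. The other 3 members stayed under 1 RPKM, namely MUC1, REG3G and CLDN10.

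Urothelial markers were also expressed, in 5 of 5 cases, with a summed level of 75.6 to 78.5 RPKM (DMSO) and 79.1 to 84.7 RPKM (EtOH). Most of it was UPK1B, a uroplakin of the bladder surface, at 53.8, 54, 53.5, 55.8 and 60.4 RPKM. UPK2 was at 1.96 to 3.43 RPKM and KRT20, a keratin of umbrella cells, at 4.22 to 5.06 RPKM. On a longer list of 11 urothelial genes, 8 were expressed (72.7%), against 45.4% and 45.5% of all genes. Its other members, SNX31, UPK3B and VGLL1, reached at most 0.0758 RPKM, 0.0420 RPKM and 0.0261 RPKM. The part of urothelial cells in the luminal and proximal levels was not tested.

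Markers of other cell types were near 0. No neuroendocrine marker (10), smooth muscle marker (8), seminal vesicle marker (7), neuron or glia marker (8), adipocyte marker (5) or erythroid marker (4) was at 1 RPKM in every library. Their summed levels were at most 0.871, 1.23, 0.0564, 1.37, 0.121 and 0.496 RPKM in any library. Of 10 fibroblast markers 2 were expressed, DCN, a matrix proteoglycan, at 2.44 to 3.31 RPKM and FBLN1 at 1.26 to 1.53 RPKM, while COL1A2 and COL3A1, the defining collagens, were listed at 0. The fibroblast sum was 3.93 to 4.90 RPKM (DMSO) and 4.21 to 4.37 RPKM (EtOH). Of 14 immune markers CD68, a lysosomal protein that epithelium can also express, was at 11.6 to 16.8 RPKM, and PTPRC, CD4, LYZ2 and C1QA were listed at 0. The immune sum was 14.9 to 19.1 RPKM (DMSO) and 13 to 16 RPKM (EtOH). Of 9 endothelial markers only EGFL7 was expressed, at 2.03 to 2.93 RPKM, and CDH5 and KDR were listed at 0. The endothelial sum was 2.76 to 3.40 RPKM with DMSO and 2.46 to 3.26 RPKM with EtOH.

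Secretory genes of the adult prostate and seminal vesicle were nearly missing. Of 32 matched secretory genes, 1 was expressed with DMSO and 2 with EtOH, and 11 were listed at 0 in all libraries. The list is not of prostate secretions alone, and some of its genes are also among the seminal vesicle markers above. The whole list summed to between 7.07 and 8.75 RPKM in a library. PBSN, probasin, the classical androgen-driven secretion of the mouse dorsal-lateral lobe, was listed at 0 in all 5 libraries. So were PATE4, SPINK3 and the seminal vesicle proteins SVS3A, SVS4, SVS5 and SVS6. MSMB, the microseminoprotein, reached at most 0.074 RPKM, and TGM4, the transglutaminase that clots semen, at most 0.02 RPKM. CEACAM10, a secreted adhesion protein of the seminal vesicle, was the highest member at 3.62, 4.29, 3.39, 4.64 and 3.83 RPKM. AZGP1, a zinc-binding glycoprotein, stood at 1.66, 0.993, 1.12, 1.37 and 1.58 RPKM and missed the threshold with DMSO only in DMSO 2. Without that library 2 members would count with DMSO.

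Other genes known to respond to androgen were mostly present. Of 32 androgen target genes 30 were expressed, with a median level of 10.6 (DMSO) and 11 RPKM (EtOH) and a median percentile rank of 74.9 and 75.2. SGK1, a kinase induced by steroid hormones, stood at 355, 357, 372, 353 and 365 RPKM. TMPRSS2, a surface protease, stood at 171, 173, 182, 162 and 165 RPKM, with the EtOH libraries the lowest. FKBP5, a co-chaperone used as a readout of androgen and glucocorticoid action, stood at 44, 41.5, 39.9, 40.6 and 48.2 RPKM. SLC45A3, a prostate transporter, was at 23.5 to 26.3 RPKM, and STEAP1, a metalloreductase, at 19.4 to 23.1 RPKM. The 2 targets below the threshold were SPDEF, an ETS factor of secretory cells, at most 0.251 RPKM, and TRPM8, a cold-sensing channel, listed at 0.

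Of 18 nuclear receptors on the list 11 were expressed (61.1%), against 45.4% and 45.5% of all genes. RARG, a retinoic acid receptor of epithelium, was the highest at 58.9, 60.7, 59.6, 60.6 and 56.1 RPKM. RXRA, the common partner of many receptors, was at 30.4 to 34.6 RPKM, and NR3C1, the glucocorticoid receptor, at 6.05 to 7.09 RPKM. ESR1, estrogen receptor alpha, lay at the threshold with 0.819 to 1.08 RPKM, ESR2 reached at most 0.04 RPKM, and PGR was listed at 0. Of 22 genes of androgen metabolism 9 were expressed (40.9%), a share near that of all genes. SRD5A1, a 5-alpha reductase that makes dihydrotestosterone, stood at 31.4, 34.7, 35.4, 38.2 and 34.3 RPKM, and SRD5A2, the form best known from prostate stroma, was listed at 0. The steroid-making enzymes HSD3B1 and HSD17B3 were also listed at 0, and CYP17A1 reached at most 0.088 RPKM.

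HOX genes mark position along the body axis, with high paralog numbers for posterior parts. Of 39 HOX genes 18 were expressed with DMSO (46.2%) and 16 with EtOH (41.0%), shares near those of all genes. The highest 5 were HOXA10, HOXD13, HOXA9, HOXB13 and HOXA11. HOXA genes made up 54.0% to 56.0% of the HOX total, HOXD genes 27.5% to 29.1% and HOXB genes 16.4% to 17.7%. The HOXC cluster summed to at most 0.0107 RPKM, and 8 of its 9 genes were listed at 0 in every library. HOXA10, which patterns the reproductive tract, stood at 36.9, 35.8, 37, 37.4 and 38.1 RPKM, and HOXD13, required for prostate and limb formation, at 35.3, 37.3, 36.3, 37.3 and 39 RPKM. HOXB13, the prostate lineage factor, stood at 31.7, 29.7, 29.2, 32.1 and 32.1 RPKM, while the other HOXB genes ran from 0 to 1.4 RPKM. HOXA9 was at 29 to 31.6 RPKM, HOXA11 at 16.9 to 19.2 RPKM and HOXA13 at 7.93 to 8.96 RPKM. Anterior and central HOXA genes were expressed too, at lower levels, with HOXA7 at 5.34 to 6.87 RPKM, HOXA3 at 4.15 to 5.21 RPKM, HOXA5 at 3.61 to 3.91 RPKM, HOXA6 at 1.61 to 2.23 RPKM and HOXA2 at 1.69 to 1.99 RPKM. Of the HOXD genes HOXD8 was at 8.72 to 10.5 RPKM. HOXD12 was nearly absent between its neighbours, at most 0.02 RPKM against 1.49 to 1.9 RPKM for HOXD11. The 2 genes counted only with DMSO were HOXB6 and HOXB3, which lay at the threshold (0.9 to 1.4 RPKM and 0.841 to 1.26 RPKM).

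**Figure D2:**
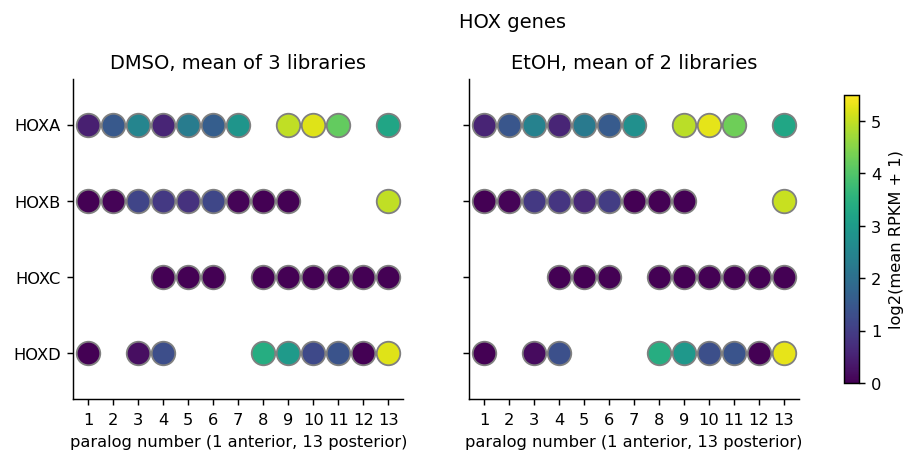
HOX genes by cluster (rows) and paralog number (columns), with colour giving log2(mean RPKM + 1), for the mean of 3 DMSO libraries (left) and of 2 EtOH libraries (right). HOXA9 to HOXA11, HOXB13 and HOXD13 are bright in both panels, and the HOXC row is dark throughout.

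Of 62 lineage transcription factors 45 were expressed. ID1, an inhibitor of differentiation that BMP signals induce, was the highest at 286, 344, 317, 336 and 344 RPKM. The epithelial ETS factors EHF and ELF3 were at 153 to 169.6 RPKM and 129 to 149 RPKM, and KLF5, a factor of prostate basal and luminal cells, at 84.4 to 108 RPKM. GATA3, a luminal and urothelial factor, was at 64.1 to 74.1 RPKM. SOX2, a stem cell factor, stood at 18.9 to 22 RPKM, and SOX9, a factor of prostate budding, at 27.5 to 33.1 RPKM. Factors known for mesenchymal change differed among themselves. ZEB1, ZEB2 and SNAI1 reached at most 0.0094 RPKM, 0.0062 RPKM and 0.057 RPKM, and TWIST1 was listed at 0. TWIST2 was expressed at 11.8, 8.86, 9.73, 10.4 and 12.7 RPKM, and SNAI2, which basal epithelium also uses, at 16.1 to 18.7 RPKM. FOXA2, a neuroendocrine factor, was listed at 0.

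MYC itself ranked high, at a percentile rank of 94.3 (DMSO) and 93.6 (EtOH), but was not among the most abundant genes. MYC stood at 53.7, 55.4, 51.3, 52.5 and 45 RPKM, with EtOH 2 the lowest, and MAX, its obligate partner, at 49.6, 49, 49.8, 54.6 and 48.4 RPKM. MYC exceeded MAX in 3 of 5 libraries. MYCL was at 12.3 to 15.3 RPKM and MYCN reached at most 0.066 RPKM. How far the MYC value counts the construct was not tested. Of 20 genes of the MYC network 18 were expressed, all but MYCN and MLXIPL. The antagonist MXD4 was at 24.9 to 30.4 RPKM. All 37 genes of ribosome biogenesis, a group MYC is known to drive, were expressed. NPM1, nucleophosmin, stood at 846, 785, 695, 768 and 718 RPKM, and the rRNA methyltransferase FBL at 92.5, 79.7, 69.6, 80.3 and 87 RPKM. Both were highest in DMSO 1 and lowest in DMSO 3. The median level of the list was 25.5 (DMSO) and 25.4 RPKM (EtOH).

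Genes of the ribosome dominated the top of the ranking. The 78 matched ribosomal protein genes, all expressed, held 21.1% to 22.5% of the RPKM total (DMSO) and 22.0% to 22.1% (EtOH). They were 14 of the 20 most abundant protein-coding genes in each table, and 19 of those 20 were shared by both tables. EEF1A1, the factor that brings aminoacyl-tRNA to the ribosome, was the highest of all protein-coding genes at 6491, 6056, 5907, 6508 and 6201 RPKM. RPL41 stood at 4702, 4128, 3958, 4369.8 and 4077 RPKM, and TPT1, the growth-related protein TCTP, at 3620.5, 3434, 3264, 3538 and 3548 RPKM. Beyond the ribosome, the 20 highest genes of at least 1 table held LY6D, a small surface antigen of epithelium, at 2809, 2841, 2845, 3101 and 2432 RPKM, KRT19, KRT15 and the calcium-binding S100A11 and S100A6. S100A11 stood at 2434, 2259, 2185, 2329 and 2042 RPKM and S100A6 at 2154, 2089.9, 1878, 2103 and 2472 RPKM. The elongation factor EEF2 was at 1191 to 1248 RPKM, and EEF1A2, the muscle and neuron form of EEF1A1, at most 0.015 RPKM.

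**Figure D3:**
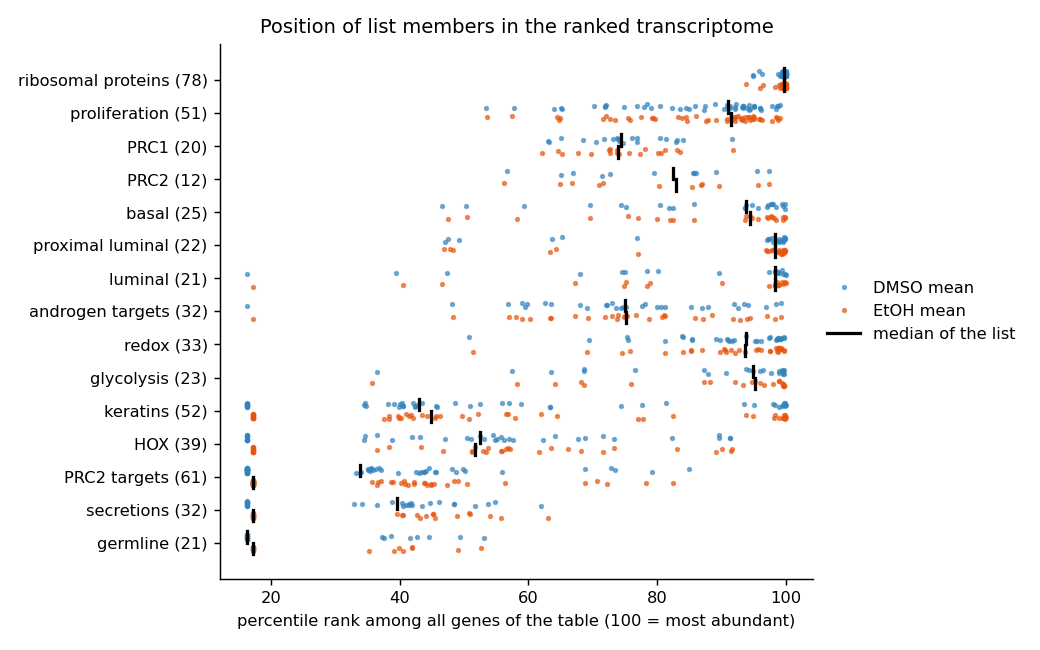
Percentile rank of each list member (points, with the number of matched members in brackets) within the DMSO table and the EtOH table, with black bars for the list medians. Ribosomal protein, luminal and proximal luminal members crowd near 100, androgen targets spread around 75, and secretory, PRC2 target and germline members lie mostly at the left edge, where genes listed at 0 share a rank.

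Most ribosomal protein genes were far above 100 RPKM. RPL30, RPL22, RPS15A and RPL34 stayed under 100 RPKM, save RPL34 in EtOH 2. RPL26 differed most between libraries among them. It stood at 719, 830.4, 954, 1435 and 181 RPKM, so EtOH 1 and EtOH 2 differed by 7.95-fold. GM15772, annotated in GENCODE as a processed pseudogene, stood at 1200.2, 972, 709, 394 and 1634 RPKM, in the opposite order. The sum of both ran only from 1663 to 1920 RPKM. The coding sequence of Rpl26 (chromosome 11) and the whole transcript of Gm15772 (chromosome 5) are 438 bases long and 436 of them are identical. The stretch that holds both mismatches, bases 157 to 308 of the coding sequence, is shown for both, in capitals at the mismatches, C177T and T288C, counted from 1 at the start codon with the Rpl26 base first.
Rpl26: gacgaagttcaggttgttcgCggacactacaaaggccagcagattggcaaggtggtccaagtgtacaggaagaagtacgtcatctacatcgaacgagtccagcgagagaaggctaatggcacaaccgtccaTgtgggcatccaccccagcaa
Gm15772: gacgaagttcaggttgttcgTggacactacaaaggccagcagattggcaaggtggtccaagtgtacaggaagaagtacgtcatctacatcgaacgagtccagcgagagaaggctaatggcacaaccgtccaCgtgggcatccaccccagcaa
A short read that misses both positions fits both places equally, and no source used here states how multiply aligned reads were treated. Values of RPL26 and GM15772 are therefore uncertain one by one. The same holds for RPS27 and RPS27RT, whose transcripts share 341 of 341 aligned bases, and for ATP6V0C, a proton pump subunit, and ATP6V0C-PS2, which share 464 of 465. RPS27RT stood at 0.596, 0.494, 0.556, 0.555 and 228 RPKM, high in EtOH 2 only. ATP6V0C-PS2 stood at 0.013, 0.011, 10.9, 0.0087 and 37 RPKM, again highest in EtOH 2. The parent genes varied less, with RPS27 at 2876 to 3253 RPKM and ATP6V0C at 207 to 242 RPKM.

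**Figure D4:**
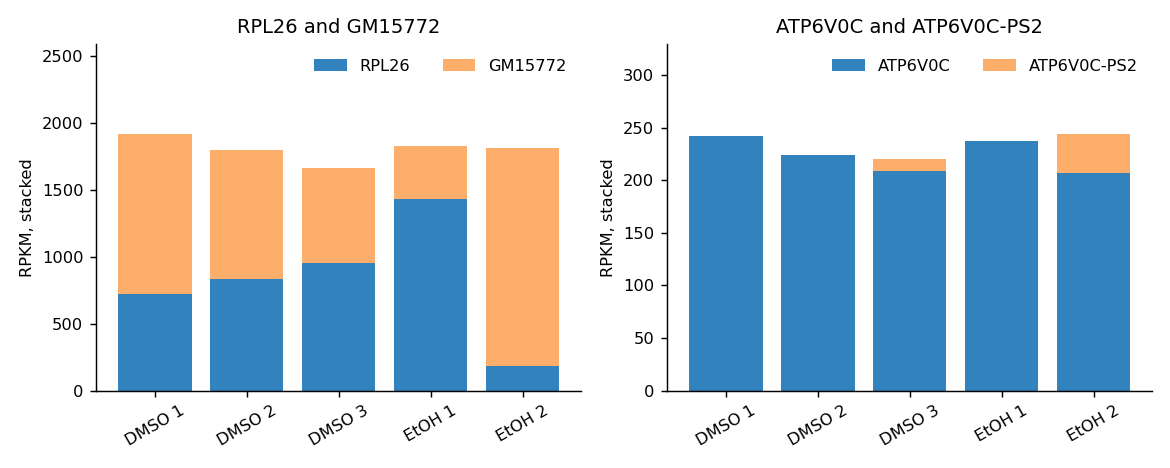
Stacked RPKM of RPL26 with GM15772 (left) and of ATP6V0C with ATP6V0C-PS2 (right) in each vehicle library. The share of RPL26 runs from 9.95% of the sum in EtOH 2 to 78.5% in EtOH 1, while the height of the whole bar stays between 1663 and 1920 RPKM.

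Promoter sequences were searched for motifs by expression class, as a description. Many mRNAs of the translation machinery begin with a C followed by a run of pyrimidines, the 5′ terminal oligopyrimidine motif. A C followed by at least 5 bases that are each C or T, starting within 5 bases of the transcription start on the gene's strand, was found in 10.2% of 14131 genes with a single listed start in RefSeq (GRCm38.p6). It was found in 33.3% of 48 genes at a mean of 1000 RPKM or more and in 44.9% of 49 ribosomal protein genes. In genes listed at 0 in all libraries it was found in 8.97% of 4294. The stretch from 120 bases before to 10 bases after the start is shown for 2 genes with the run, in capitals.
EEF1A1, chr9:78481715-78481844, minus strand: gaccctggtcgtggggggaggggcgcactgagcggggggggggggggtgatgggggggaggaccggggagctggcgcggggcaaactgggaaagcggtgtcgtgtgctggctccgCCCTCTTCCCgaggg
RPS27, chr3:90213639-90213768, minus strand: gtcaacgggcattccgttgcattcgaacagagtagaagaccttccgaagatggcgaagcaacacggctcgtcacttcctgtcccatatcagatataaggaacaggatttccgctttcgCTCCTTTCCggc
The TATA sequence TATAAA, on the gene's strand and lying whole within 40 to 15 bases before the start, was in 3.06% of all 14131 promoters. It was in 38.2% of 34 keratin promoters and 29.2% of 24 secretory promoters, against 0% of 49 ribosomal protein and 36 PRC2 target promoters. It occurred in abundant genes, as in ANXA1, the calcium-dependent lipid-binding annexin A1 at 1467 to 1776 RPKM, and in genes near 0, as in TGM4. Both are shown with TATAAA in capitals.
ANXA1, chr19:20390662-20390791, minus strand: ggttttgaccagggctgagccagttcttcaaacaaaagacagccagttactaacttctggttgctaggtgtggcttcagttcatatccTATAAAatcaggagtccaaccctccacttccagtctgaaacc
TGM4, chr9:123034621-123034750, plus strand: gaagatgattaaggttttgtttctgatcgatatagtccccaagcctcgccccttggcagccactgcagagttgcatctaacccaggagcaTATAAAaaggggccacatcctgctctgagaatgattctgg
The E-box CACGTG, the preferred site of MYC and MAX, reads the same on both strands. It was in 8.03% of the 300-base promoters, 20.7% of 29 ribosome biogenesis promoters and 6.12% of 49 ribosomal protein promoters. It was in 5.10% of genes listed at 0 and in 11.3% of 3386 genes at 10 to under 100 RPKM. Of 36 PRC2 target promoters 11.1% held it, although most genes of that list were at or near 0. The motif holds a CpG, and how far its share follows CpG content was not tested. The ratio of observed to expected CpG had a median of 0.197 in genes listed at 0, 0.395 in those above 0 but under 1 RPKM and 0.770 in those at 1 to under 10 RPKM. Median GC content in these classes was 46.3%, 55.3% and 61.3%. A match is a description of these letters and not evidence of binding.

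Cell cycle genes were expressed almost in full. Of 51 proliferation genes 50 were expressed, with a median percentile rank of 91.0 (DMSO) and 91.5 (EtOH). The exception was E2F2, at 0.809 to 1.07 RPKM. MKI67, the antigen Ki-67, stood at 53, 53.4, 51.6, 54.5 and 53.3 RPKM. CCND1, cyclin D1, stood at 288, 305, 283, 297 and 289.95 RPKM and its kinase CDK4 at 228, 211, 204, 222 and 222 RPKM. The replication clamp PCNA was at 156 to 191 RPKM, and TOP2A, a mitotic topoisomerase, at 69.6 to 84.6 RPKM. For PCNA and for the helicase subunit MCM7 (68.5 to 83.2 RPKM) DMSO 1 was the highest library and DMSO 3 the lowest. Cell cycle brakes were expressed as well, in 7 of 7 cases. CDKN1A, the p53 target p21, stood at 61.7, 65.5, 62.5, 77.2 and 80.8 RPKM, with both EtOH libraries above all DMSO libraries. CDKN2A, the locus of p16 and p19ARF, was at 25 to 27.6 RPKM. Of 31 genes altered often in prostate and other cancers all 31 were expressed, among them TRP53 at 85 to 92.9 RPKM and RB1 at 6.18 to 6.98 RPKM.

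Polycomb repressive complex 2 (PRC2) places the silencing mark H3K27me3, and EZH2 is its catalytic subunit. All 12 PRC2 genes were expressed. EZH2, whose alleles were floxed but not yet exposed to Tamoxifen, stood at 30.4, 29.8, 27.1, 27.9 and 34 RPKM, a mean of 29.1 ± 1.78 RPKM with DMSO (SD, n = 3) and 31 ± 4.25 RPKM with EtOH (SD, n = 2). It exceeded its paralog EZH1 by 1.74 to 2.31-fold in each library. The core partners SUZ12 and EED were at 22.2 to 25.5 RPKM and 20.5 to 22.8 RPKM, and the histone-binding RBBP7 at 102 to 114 RPKM. All 20 PRC1 genes were expressed, led by PHC2 at 36.8 to 39.5 RPKM, with the ubiquitin ligase RNF2 at 17.7 to 19.6 RPKM.

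Classical targets of PRC2 were mostly at or near 0. Of 61 developmental regulators, 6 were expressed in all 5 libraries and 26 were listed at 0, with a median percentile rank of 33.9 (DMSO) and 17.3 (EtOH), the latter being the shared rank of genes listed at 0. The exceptions were FOXC1 at 20.2, 21.5, 20.8, 18.2 and 17.3 RPKM, SOX21 at 13.4, 14.5, 14.3, 12.4 and 14.7 RPKM, TBX2 at 8.13 to 9.81 RPKM, MSX2 at 7.31 to 9.76 RPKM, PAX9 at 6.22 to 7.16 RPKM and MSX1 at 1.38 to 1.87 RPKM. All 6 encode transcription factors of embryonic patterning. Germline genes were low too, with 0 of 21 expressed and STAG3, a meiotic cohesin, the highest at 0.573 to 0.898 RPKM.

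Growth factor receptors were those of epithelium. Of 23 receptors 13 were expressed (56.5%), against 45.4% and 45.5% of all genes. FGFR2, which reads stromal FGF10 in the prostate, stood at 56, 58.4, 63.3, 55.3 and 58.4 RPKM and exceeded EGFR, the receptor of the EGF in organoid media, by 3.14 to 3.54-fold. FGFR3 was at 38.7 to 46.8 RPKM, MET, the receptor of HGF, at 28.6 to 33.9 RPKM, and ERBB2 at 20.4 to 22.5 RPKM. FGFR1, a mesenchymal form, reached at most 0.037 RPKM and ERBB4 was listed at 0. Of 24 ligands and related genes 13 were expressed in all 5 libraries. AREG, an EGF receptor ligand, stood at 103, 104, 94.2, 95.7 and 92.5 RPKM, and EREG, HBEGF and TGFA, which bind the same receptor, were at 25.4 to 29.9 RPKM, 17.8 to 20.3 RPKM and 12.4 to 14 RPKM. The stromal ligands HGF, IGF1 and FGF2 were listed at 0, and FGF10 reached at most 0.0062 RPKM.

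Of 47 WNT pathway genes 25 were expressed (53.2%), against 45.4% and 45.5% of all genes. The ligands WNT4 and WNT7B were at 22.6 to 27.1 RPKM and 24.2 to 28 RPKM and WNT10A at 14.8 to 19.6 RPKM, and their carrier WLS was at 82 to 98.2 RPKM. Of the R-spondins, which amplify the signal, RSPO1, RSPO2 and RSPO3 were listed at 0, while the receptor LGR4 was at 23.1 to 26.9 RPKM and LGR5 at 1.23 to 1.76 RPKM. AXIN2, a feedback target of the pathway, stood at 15.9, 16.4, 16.9, 15 and 14.4 RPKM. Of 22 NOTCH pathway genes 14 were expressed, with JAG2, a ligand, at 42.6 to 51.9 RPKM, NOTCH1 at 32 to 39 RPKM and the target HES1 at 134, 138, 134, 126 and 125 RPKM. For HES1 both EtOH libraries lay below all DMSO libraries. Of 38 BMP and TGF-beta genes 27 were expressed in all 5 libraries, with BMP7 at 14.7 to 16.1 RPKM and TGFB1 at 36.3 to 42.9 RPKM. The BMP antagonist NOG, whose protein is a usual component of organoid media, reached at most 0.07 RPKM.

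Cell contacts were epithelial. Of 44 junction genes 35 were expressed, CTNNB1, beta-catenin, at 437 to 505 RPKM and the desmosomal DSP at 99.9 to 122 RPKM. CDH1 exceeded CDH3, placental cadherin, by 6.84 to 7.47-fold, and CDH2, neural cadherin, reached at most 0.0061 RPKM. Of 37 matched genes of the cornified envelope of skin, 16 were expressed (43.2%), a share near that of all genes (45.4% and 45.5%). SPRR1A, a cross-linked envelope protein, stood at 1175, 1299, 1342, 1343 and 930.4 RPKM, lowest in EtOH 2, and IVL, involucrin, at 68.1, 84.2, 84.8, 76.4 and 52.1 RPKM, also lowest there. LOR, loricrin, a late protein, was at 2.33 to 2.88 RPKM. Of 40 matrix and integrin genes 29 were expressed in all 5 libraries, with the tetraspanin CD9 at 435 to 483 RPKM and the integrin chain ITGB1 at 125 to 145 RPKM. LAMA1 and LAMA2, laminin chains of other basement membranes, were listed at 0.

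Glycolysis and the citrate cycle were expressed almost in full, in 22 of 23 and 26 of 28 genes. The exceptions were SLC2A3, a neuronal glucose transporter, SLC5A1, a sodium-glucose transporter, and SLC39A2, a zinc importer. LDHA, which makes lactate, stood at 827, 831, 803, 830.5 and 955 RPKM and exceeded LDHB by 67.7 to 78.2-fold. ALDOA was at 1012 to 1080.4 RPKM and the glucose transporter SLC2A1 at 52.6 to 58.4 RPKM. Luminal prostate cells are known for taking up zinc and exporting citrate. The zinc importer SLC39A1 was at 57.8 to 60.6 RPKM and CS, citrate synthase, at 126 to 135 RPKM. Of 33 redox genes all but GPX3, a secreted peroxidase, were expressed, that is 32. GSTA4, a glutathione transferase for lipid aldehydes, stood at 1423, 1205, 1142, 1342 and 1293 RPKM and was highest in DMSO 1. The same library was highest for GPX2, a glutathione peroxidase (293, 218, 199, 231 and 234 RPKM), and for NQO1, a quinone reductase (15.3 to 24.3 RPKM).

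Most genes of the interferon list were expressed. Of 33 genes of sensing, signalling and response, 30 were expressed in all 5 libraries, with a median level of 12.3 RPKM (DMSO) and 11.8 RPKM (EtOH). The class I genes B2M and H2-D1 were at 517 to 693 RPKM and 179 to 189 RPKM, and the receptor chain IFNGR1 at 59.7 to 63.2 RPKM. ISG15, a ubiquitin-like protein that interferon induces, was at 2.05 to 2.38 RPKM and IFIT1, an induced RNA sensor, at 0.871 to 1.34 RPKM, while BST2, an induced antiviral membrane protein, was at 9.76 to 11 RPKM. CD274, the checkpoint ligand PD-L1, reached at most 0.157 RPKM. Of 19 surface proteins that serve as drug targets 16 were expressed, with LY6E at 539 to 586 RPKM, MSLN, mesothelin, at 142 to 153 RPKM, and CD276, a B7 family protein, at 21.7 to 25.2 RPKM. The others were CD46, DLL3 and FOLH1.

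The spread within a vehicle was small for most genes. Among 8353 genes averaging 5 RPKM or more, short RNAs left out, the median SD of log2(RPKM + 1) was 0.0684 over 3 DMSO libraries. It was 0.0596 over 2 EtOH libraries among 8395 genes. The DMSO value was 0.0410 without DMSO 1. For the same underlying spread, a median SD over 2 libraries tends to be smaller than 1 over 3. These values are therefore not directly comparable. An SD of 0.5 or more was seen for 3 genes with DMSO and 14 with EtOH. MALAT1, a nuclear long noncoding RNA, stood at 66, 77.6, 130.3, 66.1 and 67.6 RPKM, apart only in DMSO 3. S100A9, a calprotectin subunit, stood at 23.7, 14.2, 12.1, 12.1 and 17 RPKM, and the chemokine CCL20 at 9.67, 5.95, 4.75, 6.61 and 9.78 RPKM. KRTDAP, a keratinocyte differentiation protein, stood at 13.6, 7.15, 9.37, 7.61 and 9.12 RPKM, and CBR3, a carbonyl reductase, at 9.21, 5.62, 5.15, 6.22 and 7.62 RPKM. These 4 genes were highest, among DMSO libraries, in DMSO 1. With EtOH the largest SDs were RPS27RT, ATP6V0C-PS2, PISD-PS3, RPL26, RPL34 and GM15772, of which 4 belong to the copy pairs described above. RPL34 stood at 72.6, 52.2, 49.8, 54.7 and 286 RPKM and RPL22L1, a paralog of RPL22, at 298, 257, 236, 268 and 478 RPKM, both highest in EtOH 2. The pseudogenes PISD-PS3 (5.17, 16.7, 4.61, 13.5 and 0.677 RPKM) and PISD-PS1 (26.3, 16.7, 31.2, 13.5 and 25.4 RPKM) varied in both groups. Their sum varied less, from 26.1 to 35.8 RPKM, a 1.37-fold range against 2.31-fold for PISD-PS1 alone. How reads were divided between them was not tested.

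Vehicle and table cannot be told apart in this design, and no source used here states whether both tables share a normalization. Genes were therefore compared between vehicles by percentile rank and without a test. Ratios and orders of RPKM between vehicles, above and below, hold only if both tables share a scale. Among 8451 genes averaging 5 RPKM or more in 1 table, both EtOH libraries ranked above all DMSO libraries for 951 (11.3%) and below them for 994 (11.8%). With so few libraries, many genes without any difference would also lie apart by order alone. The 951 and 994 are therefore not counts of genes that differ. The median absolute difference was 0.446 percentile points, and 323 genes were over 2 points apart. With a library left out, fewer libraries have to lie apart, so these counts are larger by construction and say nothing of a particular library. Without DMSO 1 they were 1743 above and 1853 below, without DMSO 3 1474 above, without EtOH 1 2518 and 2524, and without EtOH 2 2098 and 1907.

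The widest gap was FOSB, a component of the AP-1 factor that stimuli induce within minutes. FOSB stood at 45.7, 37.2, 36, 9.12 and 13.3 RPKM, so DMSO libraries were 3.54 times the EtOH libraries on average and the groups lay well apart. ATF3, a stress-induced factor, stood at 14.5, 12.8, 11.2, 6.45 and 7.73 RPKM, and the orphan receptor NR4A1 at 10.6, 9.4, 9.1, 7.44 and 6.49 RPKM. These are all immediate early genes. GADD45G, a stress sensor, stood at 11.7, 11.8, 12, 9.22 and 9.2 RPKM. ZFP579 passed the same filter only through DMSO, with a mean of 4.59 RPKM with EtOH. SAP25, a Sin3 corepressor subunit, ZFP579, PTBP2, a splicing regulator, GM20605 and NRBP2 were also among the 10 largest gaps of that direction, with mean DMSO levels 1.32 to 1.66 times those of EtOH. A list of immediate early genes was drawn up after these values were seen. Of its 20 members compared, 9 were below DMSO in both EtOH libraries by rank, and 1, BTG2, was above. Over all genes compared the shares were 11.8% below and 11.3% above. Since the list followed from the values, its count is no test of them and no conclusion is drawn from it. FOS stood at 269, 260.5, 255, 141 and 159 RPKM and DUSP1, a phosphatase that ends MAP kinase signals, at 41, 43.8, 41.6, 30.1 and 27.5 RPKM, while JUNB (216, 225, 210.1, 238 and 207 RPKM) and IER2 (108, 93, 88.8, 92.1 and 99.5 RPKM) overlapped.

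In the other direction, AKR1B3, aldose reductase, stood at 5.15, 3.7, 2.67, 8.6 and 7.17 RPKM, a mean 2.05 times higher with EtOH. It averaged 3.84 RPKM with DMSO and passed the filter of 5 RPKM only through EtOH. CCNG2, a cyclin of growth arrest, stood at 14.1, 15.7, 15.8, 21.3 and 24.3 RPKM, and the calcium-binding S100A2 at 11, 13.7, 13.3, 15.1 and 21.6 RPKM. ANKRD37, an ankyrin protein raised in hypoxia, stood at 18.2, 19.6, 20.5, 26.2 and 27 RPKM, and LIF, a cytokine, at 10.8, 12, 10.8, 15.6 and 13.6 RPKM. GM561, PPP1R35, a centrosomal protein, KCTD11 and FBXO32, a ubiquitin ligase of atrophy, had mean EtOH levels 1.32 to 1.42 times those of DMSO. A hypoxia list was drawn up after these values were seen. Of its 20 members compared, 8 were above DMSO in both EtOH libraries by rank and 0 were below. Over all genes compared the shares were 11.3% above and 11.8% below. A list made with the values known cannot test them, so no conclusion is drawn from this count. PGK1 stood at 659, 736, 719, 718 and 884 RPKM and EGLN3 at 135, 171, 164, 197 and 186 RPKM, the first overlapping between vehicles and the second not.

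**Figure D5:**
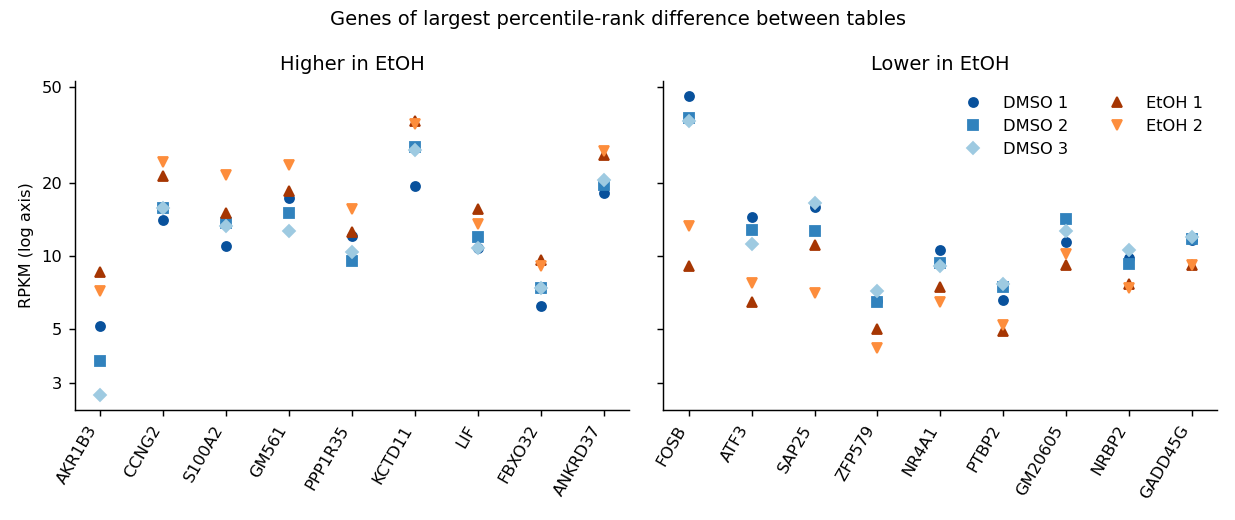
RPKM (log axis) of 9 of the 10 genes that ranked furthest above (left) and 9 of the 10 furthest below (right) in EtOH, among genes whose libraries do not overlap in rank, with 1 symbol per library (3 DMSO, 2 EtOH). FOSB lies at 36.0 to 45.7 RPKM with DMSO and at 9.12 and 13.3 RPKM with EtOH, and the other gaps are narrower.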

How the data were processed

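RNA was extracted with TRIzol and made into stranded mRNA libraries (Illumina TruSeq), per the labels' protocols. Reads were converted with bcl2fastq 2.18, aligned with STAR and quantified with Cufflinks on mm9, per the submitters' processing notes. No source used here gives the versions of STAR and Cufflinks. The deposited values are log2(RPKM + 1), and RPKM was recovered from them as the power of 2 minus 1. No counts were used, so depth is unknown. Left out with EtOH were 27 symbols turned into dates and 2 rows without values.

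Levels were ranked within each table and no treated library was used. The 5 libraries, their genes and the gene lists were chosen with earlier results of these data known. The lists of immediate early, hypoxia, housekeeping, imprinted, clock, LY6, S100 and annexin, and sex-linked genes were added after values were seen. Named genes are list members and markers, the 20 protein-coding genes of highest mean per table, the 10 of largest SD of log2(RPKM + 1) per table (mean of at least 5 RPKM), and the 10 of largest percentile difference in each direction between tables without overlap; copies of such genes (GM15772, RPS27RT, ATP6V0C and others) and other short RNAs were named after their values were seen. Some genes that this rule names are not reported here. No test was run and no p-value is given. Promoters came from RefSeq GRCm38.p6 and transcripts from GENCODE (GRCm38), another build than that of the files. The alternatives were other thresholds, pseudocounts, filters, scalings and each library left out. Scripts (Python 3.11.15, numpy 2.4.6, pandas 2.3.3, biopython 1.88, matplotlib 3.10.9) were tested on simulated data.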

Additional observations from a re-analysis of the deposited data

How the results depend on the processing

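No paired analysis was possible because the results come from no test and whether any vehicle libraries are paired is not known from the labels. With a threshold of 5 RPKM in place of 1, 0 secretory genes counted in either table, and 9 HOX genes counted with DMSO and 9 with EtOH. With values scaled to the same total per library, 3 secretory genes counted with DMSO. Leaving out 1 library at a time gave 1 to 2 secretory genes with DMSO, 1201 to 2518 genes higher in EtOH, 1239 to 2524 genes lower in EtOH, and a median SD of 0.0410 to 0.0789 with DMSO. The counts of genes apart are larger with fewer libraries by construction, and a median SD tends to be smaller. With short RNA genes left out, ribosomal proteins held 22.6% (DMSO) and 22.7% (EtOH) and keratins 2.45% and 2.45% of the total. Among genes at 1 RPKM or more in every library the mean rank correlation was 0.996 within tables and 0.995 between them. With no filter on low values the median SD was 0.0342 (DMSO) and 0.0220 (EtOH). An SD with EtOH cannot be given without 1 of its 2 libraries. Of the other values, 191 moved by more than the spread between libraries and 568 did not, and the cause was not tested. Depth limits what can be said of genes listed at 0, and it is not known from RPKM.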

Other observations

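4 gene groups outside the lists above were looked up after the data were seen. LY6 family genes, which encode small surface proteins, were expressed in 16 of 27 cases (59.3%), against 45.4% and 45.5% of all genes. Beside LY6D and LY6A they included SLURP1, a secreted member, at 494 to 553 RPKM, LY6C1 at 253 to 291 RPKM and the urokinase receptor PLAUR at 39.1 to 49.6 RPKM. S100 and annexin genes, which bind calcium, were expressed in 24 of 29 cases. ANXA2 was at 975 to 1095 RPKM, S100A14 at 503 to 629 RPKM and ANXA8 at 292 to 326 RPKM. Among 23 imprinted genes 7 were expressed, led by GNAS, a G protein subunit, at 480.04 to 517 RPKM. IGF2R was at 25.5 to 31.8 RPKM and its antisense transcript AIRN at 8.47 to 9.65 RPKM, and no source used here states how counting treated strand. H19, IGF2 and MEG3 reached at most 0.04 RPKM, 0.02 RPKM and 0.018 RPKM. Of 19 clock genes 17 were expressed, with BHLHE40 at 64.8 to 79.9 RPKM, CLOCK at 15.1 to 17 RPKM and its partner ARNTL at 10 to 10.5 RPKM.

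Of 6 Y-linked genes looked up, 4 were expressed in all 5 libraries, EIF2S3Y, DDX3Y, KDM5D and UTY, and SRY and ZFY1 were listed at 0. EIF2S3Y stood at 47.5, 46.4, 47.4, 45.5 and 45.3 RPKM, and DDX3Y at 17.9, 18.4, 19.1, 18.2 and 18.8 RPKM. XIST, the RNA of the inactive X chromosome, reached at most 0.0061 RPKM.

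Short RNA genes, which a library of this kind does not count well, held 2.87% to 4.39% of the RPKM total. MIR6236 stood at 8713, 4210.4, 11128, 4728 and 5384 RPKM. MIR1892 stood at 1973 and 3298 RPKM in DMSO 1 and DMSO 2 and at 0.0944, 0.757 and 0.0835 RPKM in the other 3 libraries.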
